A study of Mus musculus with 9 samples.

Results

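The core autophagy machinery was examined in the hypothalamic paraventricular nucleus (PVN) as a list of 46 genes, which cover the steps from initiation of the autophagosome to its fusion with the lysosome. The genes were picked by name and step, with earlier results of these data known, out of 27179 genes in the count table. All 46 were in the table, and all 46 were among the 17344 genes that passed the filter on low counts. Bulk RNA sequencing was done on PVN punches of 9 wild type male C57BL/6 mice (C57BL/6J in the study's methods), 3 per group and 1 library per mouse. Control mice ate chow with 16% of calories from fat and HFD mice a diet with 60%, each for 12 weeks. HFD+Mino mice ate the same 60% diet for 12 weeks and drank minocycline, a tetracycline antibiotic, at 40 mg/kg/day over the last 6 weeks. The labels give an age of postnatal day 35 for all groups, which the study's methods give as the age at the start of the diets. A punch holds every cell type at the site, and p-values measure the spread between these mice.

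Autophagy encloses portions of cytoplasm in a double membrane and carries them to the lysosome for breakdown. The ULK1 kinase complex starts the process, and the class III PI3-kinase complex then makes the lipid PI3P at the forming membrane. WIPI proteins bind that lipid, while ATG9A vesicles and the ATG2 lipid transfer proteins supply membrane. Conjugation enzymes related to those of ubiquitin attach ATG8 proteins, the LC3 and GABARAP families, to the membrane. Receptors such as SQSTM1 (p62) link cargo to ATG8 proteins, and SNARE proteins fuse the closed autophagosome with the lysosome. In hypothalamic neurons autophagy is known to take part in the control of food intake and energy balance. Transcript levels do not measure autophagic flux, and ATG8 and SQSTM1 proteins are themselves consumed by it.

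The libraries differed in ways that the groups do not name. Total counts lay between 17728590 and 42326213 per library. Avp, the vasopressin gene of PVN neurons, had 6 counts in Control 1 against 819388 in HFD+Mino 1, and Otp, a PVN transcription factor, had 0 counts in Control 1. Summed over 6 PVN neuron markers, the level was 27.8, 931 and 2562 CPM (counts scaled to each library's TMM-adjusted size) in Control 1 to 3. It was between 2475 and 3725 CPM in HFD, and 37713, 31906 and 3103 CPM in HFD+Mino 1 to 3. Control 3, the highest of its group, and HFD+Mino 3, the lowest of its group, lay within the HFD range. Pmch and Hcrt, markers of the neighbouring lateral hypothalamus, had 15723 and 2956 counts in Control 1 and 90673 and 28779 in Control 2, against at most 1379 and 189 in any other library. The 6 oligodendrocyte markers summed to 29204 CPM in Control 1 and to between 2220 and 6885 CPM in the others. Precursor ribosomal RNA (Rn45s and Rn18s) was between 3568 and 3915 CPM in HFD, above the 245 to 479 CPM of Control and the 442 to 1406 CPM of HFD+Mino. In bulk tissue fewer cells of a type and less RNA per cell cannot be told apart, and the part of these differences in the results was not tested. Whether all punches took the same region is not known, and a difference in the dissected region cannot be told apart from a difference between groups.

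The 46 genes were present at very different transcript levels. Exon length here is that of the merged exons of all annotated transcripts of a gene, which can exceed the length of any single transcript. Per kilobase of exon, and as a mean over the 9 libraries, Sqstm1 stood highest at 366 CPM per kb and Map1lc3a (LC3A) next at 357. Gabarapl1 followed at 165, Gabarapl2 at 129 and Map1lc3b (LC3B) at 67.3, so that a receptor and ATG8 genes filled the first 5 places. Epg5, a tether of autophagosomes and lysosomes, was lowest at 1.92 CPM per kb, below Wipi1 at 2.40. The order of the top pair changed with the group, since Sqstm1 was above Map1lc3a in Control (373 against 289.7 CPM per kb) and HFD (352 against 228) but below it in HFD+Mino (373 against 553). The CPM values of all 46 genes summed to 5331 ± 390 for Control, 4953 ± 294 for HFD and 5590 ± 628 for HFD+Mino (SD, n = 3), and the groups overlapped. The genes varied least among the HFD mice, where the median SD of log2 CPM was 0.125, against 0.330 in Control and 0.352 in HFD+Mino. Among Control libraries the third lay closest to the HFD mean in 31 of the 46 genes, and among HFD+Mino libraries the third did so in 27. The same libraries, Control 3 and HFD+Mino 3, lay within the HFD range of summed PVN neuron markers. The part of PVN content in this closeness was not tested.

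**Figure D1:**
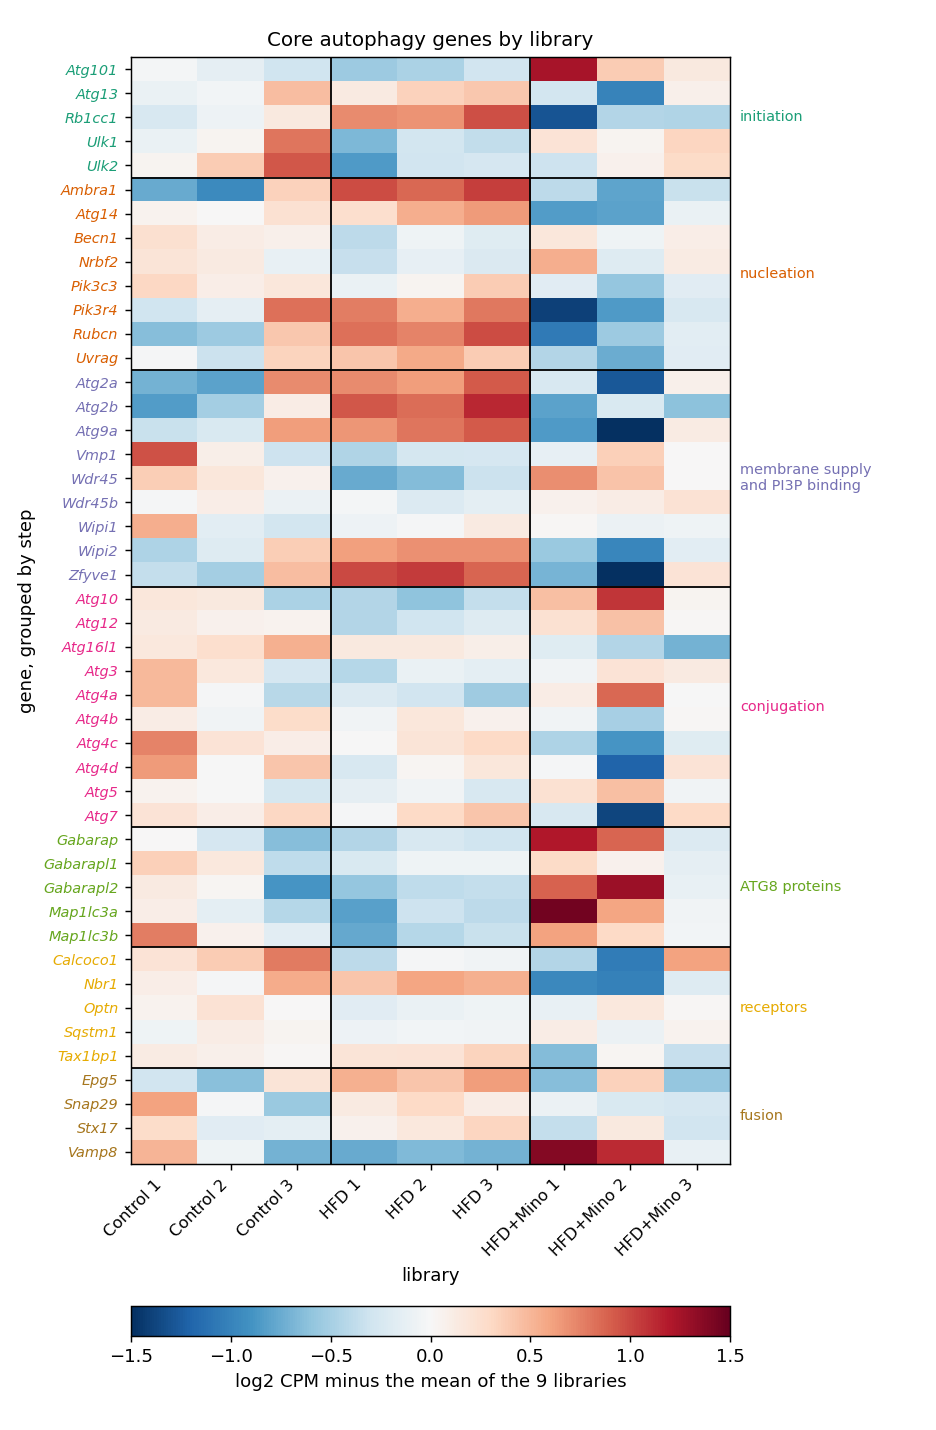
Heat map of log2 CPM minus the mean of the 9 libraries for the 46 genes (vertical axis, grouped by step) in each library (horizontal axis), with red above and blue below the gene's mean. The HFD columns are alike within the group, Control 3 and HFD+Mino 3 are closest to them in 31 and 27 of the 46 genes, and ATG8 genes are red in HFD+Mino 1 and 2.

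Promoter sequence was at hand for 38 of the 46 genes, as 46 windows of the 250 bases before a RefSeq transcription start (GRCm38.p6). Windows that lie wholly outside their gene are shown for Ambra1, the member with the second largest difference between HFD and Control, for Gabarapl2 and Vamp8, which were higher in HFD+Mino than in HFD, and for Atg3, the one of these that holds an E-box, at 2 positions. The windows are chr2:91729888-91730137 on the plus strand, chr8:111940453-111940702 on the plus strand, chr6:72390668-72390917 on the minus strand and chr16:45158579-45158828 on the plus strand. Each is written from 5′ to 3′ on the strand of its gene, and capitals mark CACGTG, the E-box letters bound by TFEB, a master regulator of lysosomal genes.
Ambra1: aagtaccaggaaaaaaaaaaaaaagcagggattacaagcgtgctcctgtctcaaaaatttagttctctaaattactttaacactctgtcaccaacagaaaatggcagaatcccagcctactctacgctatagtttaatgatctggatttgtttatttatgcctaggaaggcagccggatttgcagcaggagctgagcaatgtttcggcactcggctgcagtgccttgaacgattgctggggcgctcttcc
Gabarapl2: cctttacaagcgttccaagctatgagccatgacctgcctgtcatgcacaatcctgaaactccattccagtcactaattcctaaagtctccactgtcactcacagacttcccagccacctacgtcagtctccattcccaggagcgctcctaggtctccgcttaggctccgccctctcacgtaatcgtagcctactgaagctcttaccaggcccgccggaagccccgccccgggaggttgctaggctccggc
Vamp8: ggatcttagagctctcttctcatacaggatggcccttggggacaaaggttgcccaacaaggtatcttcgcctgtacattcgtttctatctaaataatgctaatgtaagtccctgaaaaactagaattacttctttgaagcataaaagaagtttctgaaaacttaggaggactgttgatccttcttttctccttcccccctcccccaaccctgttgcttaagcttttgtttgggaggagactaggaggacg
Atg3: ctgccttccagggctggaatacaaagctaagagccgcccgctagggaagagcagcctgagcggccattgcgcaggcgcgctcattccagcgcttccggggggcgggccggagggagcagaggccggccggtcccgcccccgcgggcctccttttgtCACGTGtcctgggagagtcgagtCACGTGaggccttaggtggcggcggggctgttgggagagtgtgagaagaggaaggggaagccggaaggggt
The Vamp8 window was poor in CpG, with 3 CpG and 43.6% G and C, against 21 CpG and 68.0% in Atg3. Searched on both strands, CACGTG was in 5 of the members' 46 windows (10.9%) and in 6.02% of all 32851 windows. The genes were Atg3, Atg5, Atg7, Nrbf2 and Rubcn. The antioxidant response element TGACNNNGC was in 8 of the members' 46 windows (17.4%) against 10.2% of all. The genes were Atg13, Nrbf2, Tax1bp1, Ulk2, Vmp1 and Zfyve1, and several of these windows belong to Vmp1. Whether these shares differ from those of all windows was not tested. The forkhead letters TGTTTAC were in 0 of the 46 windows, against 3.17% of all.

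Genes were compared with edgeR's quasi-likelihood test in 1 fit of all 9 libraries, with the false discovery rate (FDR) taken over all 17344 genes. A gene is termed called at an FDR under 0.01 and a change of at least 1.5-fold, and a looser reading used an FDR under 0.05 with the same fold. The comparisons share libraries, so their results are given side by side and are not independent of each other. A 3-way test asked whether the group means differed at all, and a call further required HFD to be the highest or lowest group. By this rule 1 of 46 genes was called, Atg2b, against 2.13% of all genes (0.917% highest and 1.21% lowest in HFD). The looser reading held 7 genes, or 15.2%, against 13% of all genes. Rb1cc1, Ambra1, Pik3r4, Rubcn, Atg2b and Wipi2 were highest in HFD, against 6.37% of all genes, and Vamp8 was lowest, against 6.65%. For any difference among the groups, whatever their order, 24 genes, or 52.2%, had an unadjusted p under 0.05, against 39% of all genes. By libraries alone, all 3 HFD values lay beyond the 6 others in 15 genes, or 32.6%, against 23% of all genes. Of these, 11 were higher in HFD (Rb1cc1, Ambra1, Atg14, Rubcn, Uvrag, Atg2b, Atg9a, Wipi2, Zfyve1, Tax1bp1 and Epg5), against 13.4% of all genes in that direction. The other 4 were lower (Ulk1, Wdr45, Atg12 and Map1lc3b), against 9.62%. Control and HFD+Mino libraries with the same number in their titles had deviations from their group means that correlated at 0.135, 0.163 and 0.292. Control 2 and HFD 1, with different numbers, reached 0.167, so values of this size also occurred without a shared number. No source says what the number marks, so results with it as a block rest on a pairing read from these same counts. Blocking on that number for Control and HFD+Mino only, the 3-way test called 10 genes, with 13.2% of all genes, and blocking in all groups it called 3, with 2.81%. It called 13 without HFD+Mino 3 (13.4% of all genes), 3 without Control 3 (2.71%) and 0 when any other single library was left out (between 0.0168% and 2.08%).

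Between HFD and Control, 0 of the 46 genes were called by edgeR's quasi-likelihood test, against 1.74% of all genes (0.317% higher and 1.42% lower), and DESeq2 called 2. An unadjusted p under 0.05 was reached by 12 genes, or 26.1%, against 20.5% of all genes. In the looser reading 2 genes, Ambra1 and Atg2b, were higher in HFD and 0 lower, against 2.57% and 3.21% of all genes (5.77% in both directions). By libraries alone, HFD and Control did not overlap in 21 genes, or 45.7%, against 35.7% of all genes. Of these 11 were higher in HFD, against 19.7%, and 10 were lower (Ulk1, Ulk2, Becn1, Nrbf2, Wdr45, Atg12, Atg16l1, Map1lc3b, Calcoco1 and Optn), against 16%. The list as a whole was centred near 0, with a median log2 fold change of -0.08 against 0.00 over all genes, and 18 of 46 genes, or 39.1%, above 0 against 50.3% of all genes. Blocking on the number for Control and HFD+Mino only, 3 genes were called, Ambra1, Atg2b and Rubcn, with 6.22% of all genes. The looser reading then held 12, with 15.3% of all genes. These were Rb1cc1, Ambra1, Rubcn, Atg2a, Atg2b, Atg9a, Wipi2 and Zfyve1, higher in HFD, and Ulk2, Wdr45, Map1lc3b and Vamp8, lower. Blocking in all groups called 0, with 1.64% of all genes. Without Control 3 the called genes numbered 2 (1.70% of all genes). The looser count was 4 without Control 3 (7.12%) and 0 without Control 1, Control 2 or any single HFD library (1.71% to 2.86%).

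Between HFD+Mino and HFD, 2 of the 46 genes were called, Rb1cc1 and Atg2b, both lower in HFD+Mino, against 4.15% of all genes (1.98% higher and 2.16% lower). The looser reading held 18 genes, or 39.1%, against 27.4% of all genes. Of these, 7 were higher in HFD+Mino (Atg101, Wdr45, Atg10, Gabarap, Gabarapl2, Map1lc3a and Vamp8), which is 15.2% of the list against 14.6% of all genes. The other 11 were lower (Rb1cc1, Ambra1, Atg14, Pik3r4, Rubcn, Uvrag, Atg2b, Atg9a, Wipi2, Zfyve1 and Nbr1), which is 23.9% against 12.9%. The HFD+Mino and HFD libraries did not overlap in 33 genes, or 71.7%, against 46.7% of all genes, with 14 higher and 19 lower in HFD+Mino against 23.3% and 23.5% of all genes. An unadjusted p under 0.05 was reached by 27 genes, or 58.7%, against 41.3% of all genes, and 22 genes, or 47.8%, had a log2 fold change above 0 against 50.3%. The number called was 17 without HFD+Mino 3 (21.4% of all genes), 4 without Control 3 (4.78%), 2 without Control 1 (5.27%), and 0 without Control 2, HFD+Mino 1, HFD+Mino 2 or any single HFD library (0.162% to 1.89%). In these fits the log2 fold change of Rb1cc1 stayed between -1.60 and -1.23 and that of Atg2b between -1.68 and -1.38. Both passed an FDR of 0.05 in 9 of 9, but each was called in only 3 of the 9. Over 24 alternatives, which include the looser threshold, each was called in 14. With a trend on exon length removed neither was called, at -1.02 for Rb1cc1 (SE 0.24, FDR 0.0237) and -1.08 for Atg2b (SE 0.22, FDR 0.0151). In the looser reading Rb1cc1 was lower in HFD+Mino under each of 22 other ways of processing the counts, and Atg2b under 21 of them, the exception being HFD+Mino 3 as the single library of its group, where its log2 fold change was -1.58 (SE 0.39, FDR 0.0704). The count of 18 genes at that threshold became 2 without HFD+Mino 1 (6.97% of all genes) or HFD 3 (3.11%), 5 without HFD 2 (7.80%) and 7 without HFD 1 (8.18%). Blocking for Control and HFD+Mino only, 20 genes were called, with 25.6% of all genes, and blocking in all groups 8, with 7.89%.

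Between HFD+Mino and Control, 0 of the 46 genes were called by edgeR's quasi-likelihood test, as were 0% of all genes, and DESeq2 called 0. In the looser reading edgeR held 0 and DESeq2 3 (Atg4c, Atg16l1 and Nbr1). The count at an unadjusted p under 0.05 was 12, or 26.1%, against 21.3% of all genes. By libraries alone 7 genes stood apart, or 15.2%, against 19.1% of all genes, with Atg101 above Control, against 8.93%, and Rb1cc1, Atg14, Pik3c3, Atg16l1, Atg4c and Nbr1 below it, against 10.1%. A log2 fold change above 0 was seen in 14 genes, or 30.4%, against 48.8% of all genes. With the block for these groups the called genes were 2, Gabarapl2 and Nbr1, with 3.18% of all genes, and 12 passed the looser reading, with 15.5%. Blocking in all groups called 0, as it did over all genes. Without HFD+Mino 3 the called genes were Gabarap and Nbr1, with 6.28% of all genes, and 11 passed the looser reading, with 20.8%.

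**Figure D2:**
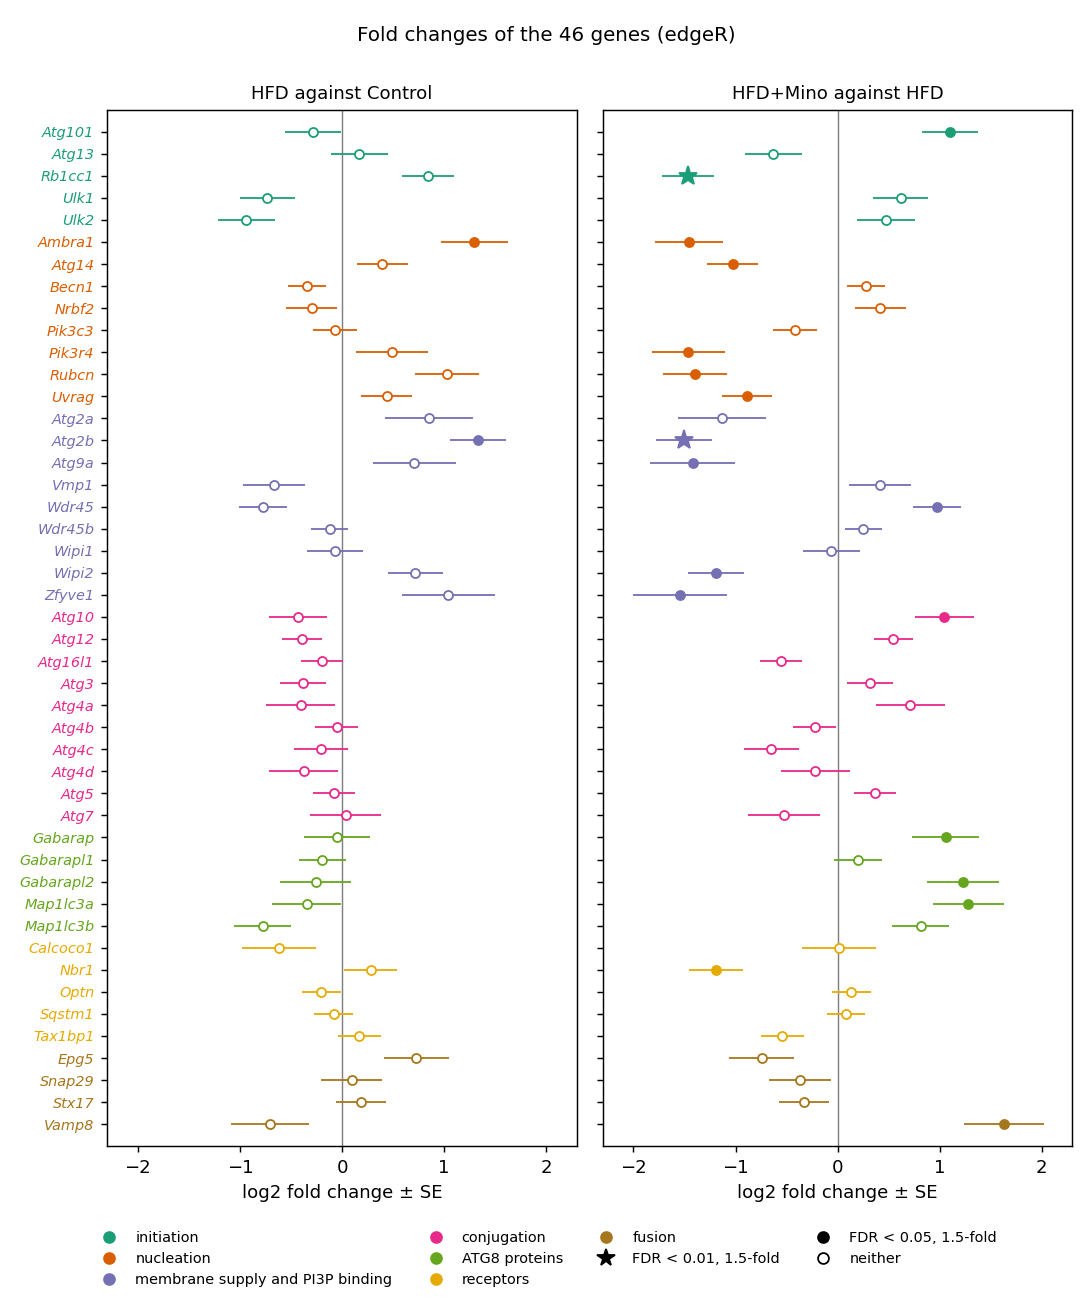
Log2 fold change (horizontal axis) with its SE, from edgeR, of each of the 46 genes (vertical axis, coloured by step) for HFD against Control and for HFD+Mino against HFD. Stars mark the genes called, filled circles those at an FDR under 0.05 and 1.5-fold, and open circles the rest; Rb1cc1 and Atg2b carry the stars on the right.

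Of the 5 initiation genes, Rb1cc1 was lower and Atg101 higher in HFD+Mino than in HFD at an FDR under 0.05, and 3 did not pass. Over all genes the shares at that threshold were 12.9% lower and 14.6% higher. Rb1cc1 (FIP200, Entrez gene 12421) encodes the scaffold of the ULK1 complex and spans chr1:6214634-6276375. It was at 47.6, 53.2 and 61.9 CPM in Control 1 to 3, at 92.0, 89.4 and 110.2 CPM in HFD 1 to 3, and at 22.9, 41.4 and 41.2 CPM in HFD+Mino 1 to 3. No group overlapped another, and HFD was the highest and HFD+Mino the lowest. The log2 fold change was -1.47 for HFD+Mino against HFD (SE 0.26, FDR 0.00684, edgeR) and 0.84 for HFD against Control (SE 0.25, FDR 0.0839). Atg101, a partner of ATG13 in the same complex, went the other way. It was at 68.1, 63.3 and 56.3 CPM in Control, 47.5, 50.1 and 56.9 CPM in HFD and 164, 90.2 and 77.1 CPM in HFD+Mino. Every HFD+Mino value was above the other 6, and the log2 fold change against HFD was 1.10 (SE 0.28, FDR 0.0177). The kinase genes Ulk1 and Ulk2 were lower in all 3 HFD libraries than in any Control library, without passing either threshold. Ulk1 was at 25.2, 27.6 and 46.9 CPM in Control, 16.9, 22.2 and 20.8 CPM in HFD and 30.9, 27.7 and 33.5 CPM in HFD+Mino, so that all HFD values were the lowest. Its log2 fold change for HFD against Control was -0.73 (SE 0.27, FDR 0.150). Ulk2 was at 44.4, 55.9 and 81.8 CPM in Control and at 23.9, 35.1 and 36.0 CPM in HFD, with a log2 fold change of -0.94 (SE 0.28, FDR 0.0834), and at 34.6, 44.9 and 52.5 CPM in HFD+Mino it overlapped both. Atg13, which binds ULK1 to the scaffold, had an FDR of 0.772 for HFD against Control and 0.113 for HFD+Mino against HFD.

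Among the 8 nucleation genes 5 were lower in HFD+Mino than in HFD at an FDR under 0.05, 0 were higher, and 3 passed in neither direction. Of all genes, 12.9% were lower and 14.6% higher. The median log2 fold change of the step was -0.96 for HFD+Mino against HFD and 0.41 for HFD against Control. Over all genes these medians were 0.01 and 0.00. Ambra1, a regulator of Beclin 1 and ULK1, was at 14.1, 12.3 and 30.4 CPM in Control, 47.2, 43.5 and 49.1 CPM in HFD, and 18.2, 13.8 and 18.9 CPM in HFD+Mino. All HFD values were above the rest, and Control 3 was the nearest to them. Ambra1 had a log2 fold change of 1.30 for HFD against Control (SE 0.33, FDR 0.0428) and -1.45 for HFD+Mino against HFD (SE 0.33, FDR 0.0135). Rubcn (Rubicon), an inhibitor of the UVRAG form of the complex, showed the same order. It was at 36.3, 38.8 and 74.8 CPM in Control, 100.2, 94.8 and 111 CPM in HFD and 27.0, 38.6 and 50.5 CPM in HFD+Mino. Rubcn had a log2 fold change of 1.03 for HFD against Control (SE 0.31, FDR 0.0865) and -1.40 for HFD+Mino against HFD (SE 0.32, FDR 0.0135), so an inhibitor and activators of the step were lower together in HFD+Mino.

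The subunits of the kinase complex itself were read next. Pik3r4 (VPS15), its regulatory subunit, had a log2 fold change of -1.46 for HFD+Mino against HFD (SE 0.36, FDR 0.0164). Control 3 at 43.4 CPM was above the HFD libraries, at 35.8 to 42.5 CPM, Control 1 and 2 were at 19.9 and 22.4 CPM, and the HFD+Mino libraries were at 9.28, 13.6 and 20.7 CPM. Atg14, which directs the complex to autophagosomes, and Uvrag, of the endosomal form, were lower in HFD+Mino than in HFD, with log2 fold changes of -1.03 (FDR 0.0164) and -0.89 (FDR 0.0250). Pik3c3 (VPS34), the catalytic subunit, did not pass, with -0.42 (SE 0.21, FDR 0.162). Becn1 (Beclin 1) was at 150.0, 138 and 134 CPM in Control, 97.5, 122 and 112 CPM in HFD and 144, 122 and 137 CPM in HFD+Mino. All HFD values of Becn1 were below Control, but the log2 fold change of -0.35 (SE 0.19, FDR 0.329) did not pass, and neither did the 0.28 of HFD+Mino against HFD (FDR 0.290). Becn1 shares 3104 nt of exon with Cntd1 on the opposite strand, and whether reads were counted by strand is not given in the sources used here, so part of its reads may belong to that gene. The same holds for Atg4d (1405 nt shared with Kri1), Sqstm1 (580 nt, Mrnip), Atg2b (383 nt, Gskip), Rubcn (171 nt, Fyttd1), Snap29 (60 nt, Pi4ka), Map1lc3b (58 nt, Zcchc14) and Atg9a (46 nt, Ankzf1). Nrbf2, a modulator of the same complex, had an FDR of at least 0.232 in each comparison.

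Among the 9 genes of membrane supply and PI3P binding, 4 were lower and 1 was higher in HFD+Mino than in HFD at an FDR under 0.05. The shares of all genes were 12.9% and 14.6%. The median log2 fold change of this step was -1.13 for HFD+Mino against HFD and 0.71 for HFD against Control, against 0.01 and 0.00 over all genes. Atg2b (Entrez gene 76559), which transfers lipid into the forming membrane and spans chr12:105613539-105685297, was at 22.0, 27.6 and 42.4 CPM in Control. It was at 75.3, 70.4 and 86.4 CPM in HFD and at 22.5, 33.5 and 25.7 CPM in HFD+Mino, so that HFD was above all others and the other groups overlapped. Atg2b had a log2 fold change of 1.34 for HFD against Control (SE 0.27, FDR 0.0168) and -1.51 for HFD+Mino against HFD (SE 0.28, FDR 0.00785). Its paralog Atg2a had the same order of group means, but Control 3 at 33.8 CPM lay among the HFD values of 31.9 to 39.1 CPM, and -1.13 for HFD+Mino against HFD (SE 0.43, FDR 0.0728) did not pass. Atg9a, the scramblase that travels on the vesicles, was at 71.5, 76.8 and 139 CPM in Control, 142, 157 and 171 CPM in HFD and 49.9, 27.2 and 98.3 CPM in HFD+Mino. HFD was again above the rest, with Control 3 close below, and the log2 fold change of HFD+Mino against HFD was -1.42 (SE 0.42, FDR 0.0294).

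Wipi2 and Wdr45, which both encode PI3P binding proteins, passed in opposite directions. Wipi2 was at 180.5, 189.9 and 191 CPM in HFD, above 85.8, 103 and 152 CPM in Control and 80.3, 59.9 and 106 CPM in HFD+Mino. Its log2 fold change was -1.19 for HFD+Mino against HFD (SE 0.27, FDR 0.0135) and 0.72 for HFD against Control (SE 0.27, FDR 0.158). Zfyve1 (DFCP1), a marker of the membrane site where autophagosomes form, was at 13.6, 12.3 and 24.2 CPM in Control, 34.8, 36.3 and 32.0 CPM in HFD and 10.8, 4.35 and 20.1 CPM in HFD+Mino. It was highest in HFD, and the log2 fold change of HFD+Mino against HFD was -1.54 (SE 0.46, FDR 0.0320). Wdr45 (WIPI4) had the reverse order, at 76.0, 65.9 and 61.4 CPM in Control, 34.7, 37.3 and 46.8 CPM in HFD and 94.9, 79.2 and 58.7 CPM in HFD+Mino. All HFD values were the lowest, with a log2 fold change of 0.97 for HFD+Mino against HFD (SE 0.23, FDR 0.0157) and -0.77 for HFD against Control (SE 0.23, FDR 0.0825). Wipi1 and Wdr45b (WIPI3) had FDR values from 0.315 to 0.914, and Vmp1, a scramblase of the endoplasmic reticulum, had an FDR of at least 0.243.

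**Figure D3:**
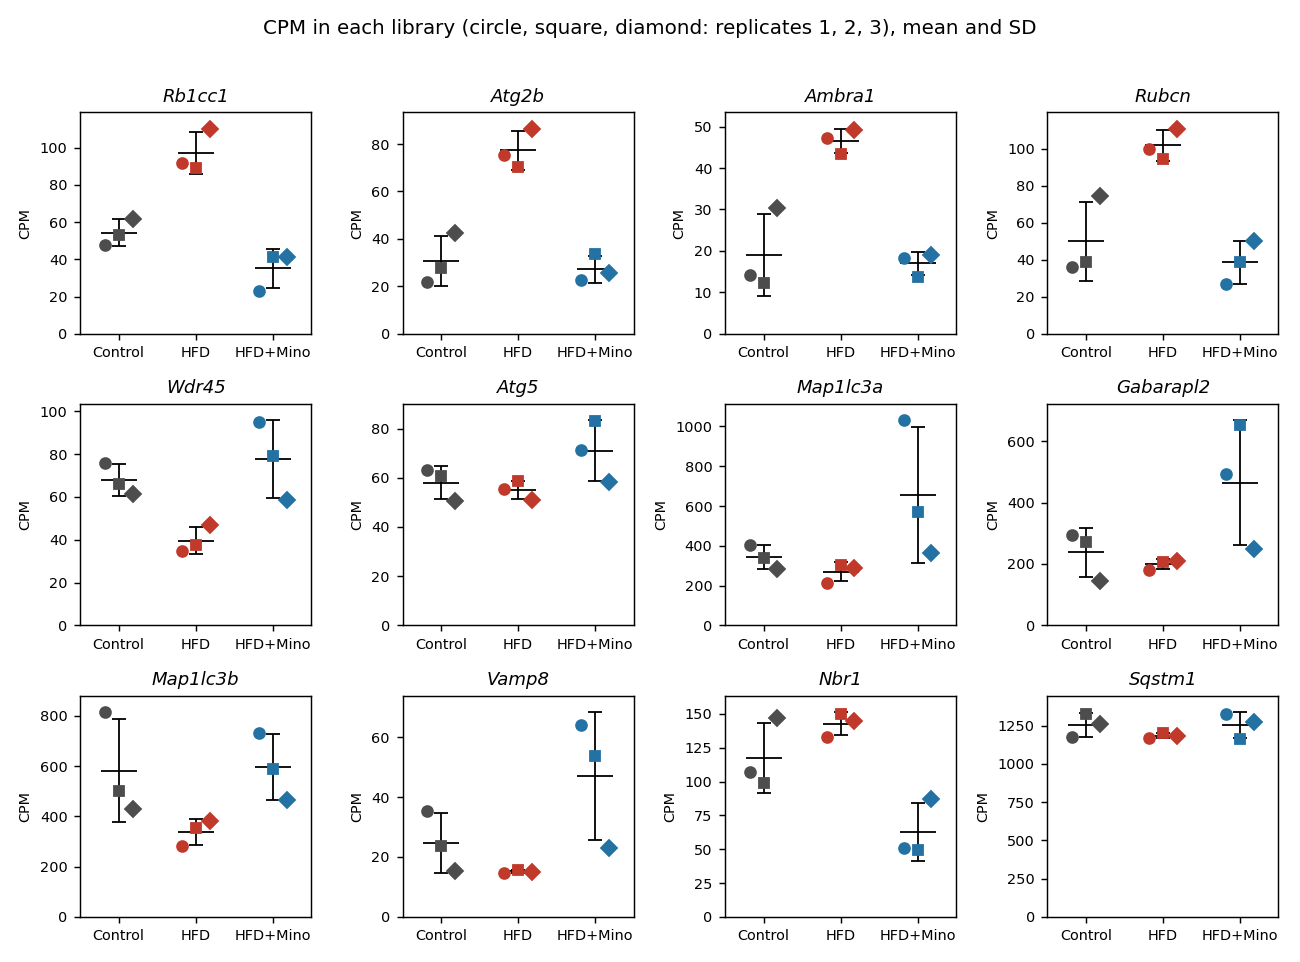
CPM (vertical axes, from 0) in each library of 12 of the genes, by group, with circles, squares and diamonds for replicates 1, 2 and 3, a horizontal line at the group mean and bars of 1 SD. Rb1cc1, Atg2b, Ambra1 and Rubcn have all HFD libraries above the other 6, Wdr45 and Map1lc3b have them below, and Sqstm1 lies between 1159 and 1327 CPM throughout.

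Of the 10 conjugation genes 1 passed an FDR of 0.05 between HFD+Mino and HFD, where 27.4% of all genes did. For HFD against Control the log2 fold changes of the step lay between -0.43 and 0.04. The gene that passed was Atg10, the E2-like enzyme that joins ATG12 to ATG5. It was at 40.1, 39.5 and 25.6 CPM in Control, 26.4, 23.6 and 28.0 CPM in HFD and 49.0, 74.9 and 36.7 CPM in HFD+Mino, and Control overlapped HFD. The log2 fold change was 1.04 for HFD+Mino against HFD (SE 0.29, FDR 0.0244). Atg12, which Atg10 handles, was lowest in all HFD libraries, at 75.7, 83.0 and 89.8 CPM against 104 CPM or more elsewhere, with an FDR of 0.282 against Control and 0.0564 for HFD+Mino against HFD. Atg5 was at 63.1, 60.5 and 50.5 CPM in Control, 55.4, 58.5 and 51.1 CPM in HFD and 71.2, 83.2 and 58.5 CPM in HFD+Mino. Control and HFD overlapped, HFD+Mino 3 was level with HFD 2, and the log2 fold changes were -0.08 (SE 0.21, FDR 0.869) and 0.37 (SE 0.21, FDR 0.203). Of the proteases that process ATG8 proteins, Atg4a had the largest difference between HFD and Control, -0.41 (SE 0.34, FDR 0.532), at between 5.43 and 14.3 CPM over all libraries. Atg16l1, which places the conjugate on the membrane, was at 51.2, 43.1 and 35.5 CPM in HFD+Mino, below 62.0 CPM or more in every other library, with a log2 fold change against Control of -0.75 (SE 0.21, FDR 0.132). The E1-like Atg7, the E2-like Atg3 and the proteases Atg4b, Atg4c and Atg4d passed in no comparison of the edgeR fit of all 9 libraries. Under 22 other ways of processing the counts, Atg4c passed an FDR of 0.05 in 3 for HFD+Mino against HFD. It also passed in 3 for HFD+Mino against Control, and Atg7 passed in 1 for HFD+Mino against HFD.

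The 5 ATG8 genes had log2 fold changes of HFD+Mino against HFD above 0, and 3 of them passed an FDR of 0.05. Of all genes 50.3% were above 0, and 14.6% were higher at that threshold. Map1lc3a (chr2:155276364-155278073) was at 404, 341 and 281 CPM in Control, 214, 305 and 288 CPM in HFD and 1031, 568 and 362 CPM in HFD+Mino. The first HFD+Mino library was highest, and the third lay below the highest Control. Map1lc3a had a log2 fold change of 1.28 for HFD+Mino against HFD (SE 0.35, FDR 0.0222) and -0.35 for HFD against Control (SE 0.34, FDR 0.600). Gabarapl2 (GATE-16) was at 294, 273 and 145 CPM in Control, 179.9, 207 and 209 CPM in HFD and 495, 652 and 249.6 CPM in HFD+Mino, while Gabarap was at 40.1, 33.5 and 25.6 CPM, 29.5, 33.9 and 32.3 CPM, and 91.8, 72.8 and 34.6 CPM in the same order of groups. Their log2 fold changes against HFD were 1.23 (SE 0.35, FDR 0.0282) and 1.06 (SE 0.33, FDR 0.0349), and in both genes HFD+Mino 3 was the lowest of its group and above all HFD libraries. Without HFD+Mino 1 or any single HFD library, 0 of these 3 genes passed. Without HFD+Mino 2 Map1lc3a alone did, and without Control 2 Gabarap did not. Without HFD+Mino 3 all 3 were called.

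Map1lc3b and Gabarapl1 did not pass in the edgeR fit of all 9 libraries described above. Between HFD+Mino and HFD, Map1lc3b passed an FDR of 0.05 under 9 of 22 other ways of processing the counts. These included 3 of the 9 fits with 1 library left out. Map1lc3b, the LC3 gene most used as a marker, was at 816, 501 and 429 CPM in Control, 281, 355 and 381 CPM in HFD and 730.3, 589 and 467 CPM in HFD+Mino. All HFD values were the lowest, and Control and HFD+Mino overlapped. The log2 fold changes were -0.78 for HFD against Control (SE 0.28, FDR 0.144) and 0.81 for HFD+Mino against HFD (SE 0.28, FDR 0.0522). With the replicate number as a block for Control and HFD+Mino, Map1lc3b passed both ways, at -0.72 (FDR 0.0164) and 0.79 (FDR 0.00423, which is a call). Gabarapl1 was at 420.3, 365 and 251 CPM in Control, 280.4, 312 and 314 CPM in HFD and 401, 343 and 299 CPM in HFD+Mino. The groups overlapped, with log2 fold changes of -0.19 (SE 0.23, FDR 0.676) and 0.20 (SE 0.23, FDR 0.543). ATG8 genes have close relatives, and how reads with several positions were counted is not given in the sources used here, so reads may be split between them.

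Of the 5 receptor genes 1 passed an FDR of 0.05 between HFD+Mino and HFD, where 27.4% of all genes did. Nbr1, a receptor for ubiquitinated cargo, was at 107, 98.6 and 147 CPM in Control, 133, 150.0 and 145 CPM in HFD and 51.2, 49.4 and 87.1 CPM in HFD+Mino. HFD+Mino was below both other groups, which overlapped, and the log2 fold change was -1.19 against HFD (SE 0.27, FDR 0.0129) and -0.91 against Control (SE 0.26, FDR 0.133). Sqstm1, which is both receptor and substrate, was at 1173, 1326 and 1260.0 CPM in Control, 1166, 1198 and 1183 CPM in HFD and 1327, 1159 and 1273 CPM in HFD+Mino. All groups overlapped, and the log2 fold changes were -0.08 (SE 0.19, FDR 0.837) and 0.08 (SE 0.19, FDR 0.767). Calcoco1, a receptor for the endoplasmic reticulum and Golgi, was at 45.8, 51.9 and 68.3 CPM in Control, 30.3, 39.3 and 38.4 CPM in HFD and 29.3, 19.2 and 60.7 CPM in HFD+Mino. HFD lay below Control and HFD+Mino spanned both, with a log2 fold change of -0.62 for HFD against Control (SE 0.37, FDR 0.367) and 0.02 for HFD+Mino against HFD (SE 0.36, FDR 0.978). The receptors Optn and Tax1bp1 did not pass in the edgeR fit of all 9 libraries.

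Among the 4 fusion genes Vamp8, the SNARE of the lysosomal side, had the largest difference of all 46 genes between HFD+Mino and HFD. It was at 35.3, 23.7 and 15.2 CPM in Control, 14.7, 15.7 and 15.1 CPM in HFD and 64.2, 53.8 and 22.9 CPM in HFD+Mino. Control 3 lay among the HFD values, and HFD+Mino 3 was within the Control range. Vamp8 had a log2 fold change of 1.63 for HFD+Mino against HFD (SE 0.39, FDR 0.0154) and -0.71 for HFD against Control (SE 0.38, FDR 0.326). Epg5 was at 14.9, 11.8 and 20.9 CPM in Control, 26.5, 24.3 and 28.1 CPM in HFD and 11.7, 23.1 and 12.2 CPM in HFD+Mino. HFD was above all others, but 0.73 for HFD against Control (SE 0.32, FDR 0.223) and -0.75 for HFD+Mino against HFD (SE 0.32, FDR 0.0999) did not pass. The SNARE genes Stx17 and Snap29, partners of Vamp8, had FDR values of at least 0.336.

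The direction of the difference went with exon length, which is again that of the merged exons and not of the transcripts expressed in these punches. Among the 18 genes that passed an FDR of 0.05 between HFD+Mino and HFD, the 7 higher ones had exon lengths from 1181 to 3310 nt. The 11 lower ones had exon lengths from 4322 to 14690 nt, with medians of 1844 and 8343 nt for the higher and lower genes and no overlap. The genes called, Rb1cc1 and Atg2b, were the longest of the 46, at 14690 and 13456 nt. Over all 46 genes, exon length and log2 fold change had a Spearman's rho of -0.699 for HFD+Mino against HFD and 0.515 for HFD against Control. Over the 15625 tested genes with a length the values were -0.489 and 0.318, so the relation was present in the whole table and is not particular to autophagy. These correlations are across genes that share the same 9 libraries. The steps differed in exon length as well, with medians of 6594 nt for nucleation, 5762 nt for membrane supply and 2013 nt for ATG8 genes. The median over all tested genes with a length was 4334 nt. Removing a smooth trend of each library on exon length left -0.322 and 0.163 over the 46 genes. It left 0 genes called and 11 at an FDR under 0.05 between HFD+Mino and HFD, against 15.8% of all genes. Of those, Rb1cc1, Ambra1, Atg14, Rubcn, Atg2b, Atg4c and Nbr1 were lower in HFD+Mino, while Ulk1, Wdr45, Atg12 and Map1lc3b, with exon lengths of 6488, 3310, 7711 and 7517 nt, were higher. Map1lc3a, Gabarap, Gabarapl2 and Vamp8 were not among them, and the log2 fold change of Map1lc3a was then -0.01. Without the trend, the median of the nucleation genes was -0.77, that of membrane supply -0.77 and that of the ATG8 genes 0.12. That fit also moved the median of all genes for HFD+Mino against HFD to -0.12. RNA integrity numbers were not used here, and the part of RNA quality in this relation was not tested.

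**Figure D4:**
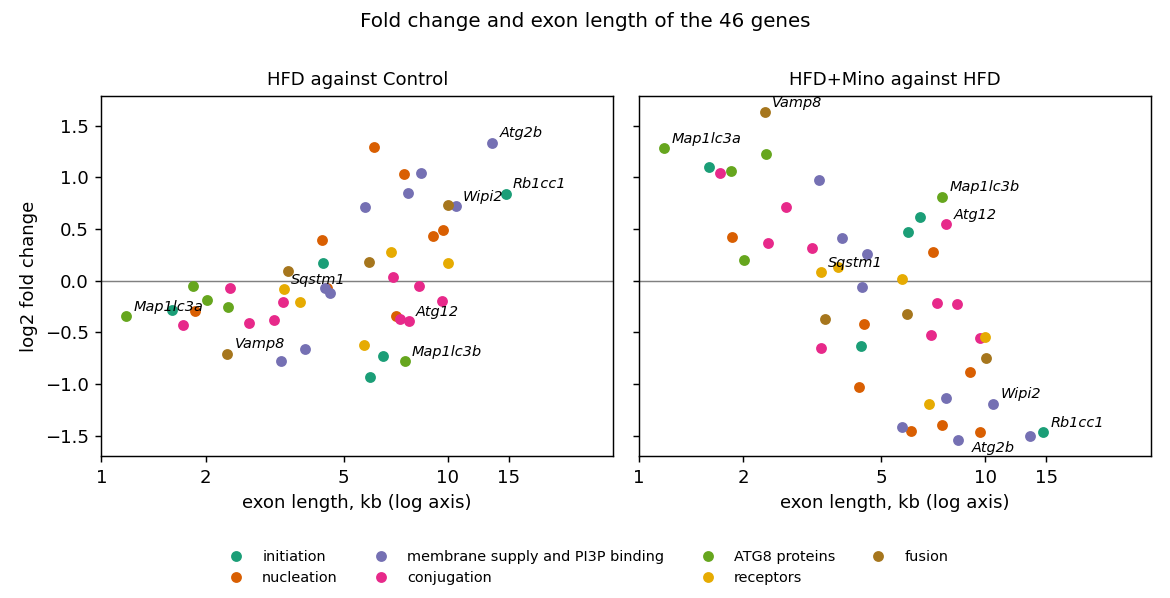
Log2 fold change (vertical axis) of the 46 genes against exon length in kb (horizontal log axis), coloured by step, for HFD against Control and for HFD+Mino against HFD. Genes with a long exon length, such as Rb1cc1 and Atg2b, sit high on the left and low on the right. Those with a short one, such as Map1lc3a and Vamp8, show the reverse, while Map1lc3b and Atg12 depart from that pattern.

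Markers of the cell types in the punch were read beside these results. For HFD+Mino against HFD, the median log2 fold change was -0.74 over 6 neuronal markers, -0.89 over 6 astrocyte markers, -0.04 over 7 microglial markers and -0.48 over 6 oligodendrocyte markers. It was -1.06 over 4 markers of oligodendrocyte precursors, -0.75 over 6 of endothelium and mural cells, 0.54 over 6 of ependyma and choroid plexus, 1.20 over 6 of PVN neurons and 1.73 over 6 of neighbouring regions. Of the markers, 3 of 6 astrocyte, 2 of 6 neuronal, 2 of 4 precursor and 3 of 6 vessel genes were lower in HFD+Mino at an FDR under 0.05. At that threshold 2 of 7 microglial, 2 of 6 neighbouring, 1 of 4 precursor and 1 of 6 vessel markers were higher. Over all genes 12.9% were lower and 14.6% higher. Of the ependymal markers 1 was higher and 1 lower, and 0 of the PVN or oligodendrocyte markers passed in edgeR. Both ribosomal precursor genes were lower, with a median of -1.75. Summed neuronal markers lay between 3088 and 3279 CPM in HFD+Mino and between 2961 and 4615 CPM in HFD, and summed astrocyte markers between 3551 and 4353 CPM and between 4358 and 5074 CPM. Summed microglial markers were between 372 and 401 CPM in HFD+Mino, above the 331 to 361 CPM of HFD and within the 262 to 411 CPM of Control. For HFD against Control the medians were -0.16 over neuronal, 0.17 over astrocyte, 0.02 over microglial and -1.47 over oligodendrocyte markers. For the same comparison over precursors, vessels, ependyma, PVN neurons and neighbouring regions they were 0.38, 0.21, 1.20, 1.01 and -1.81. How far cell composition enters the autophagy values was not tested.

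Genes around the core machinery were read from 4 lists of 117 names, of which 111 were tested. Between HFD and Control 3 of the 111 were called, against 1.74% of all genes, all lower in HFD: Dapk3, a kinase gene, Arl8a, which moves lysosomes, and Lamp1, of the lysosomal membrane. Between HFD+Mino and HFD 6 of the 111 were called, against 4.15% of all genes. Dapk3, Arl8a, Lamp1 and the proton pump subunit Atp6v0d1 were higher in HFD+Mino, whereas Mtor and Prkaa1 were lower. Arl8a had mean levels of 205 ± 8.21 CPM for Control, 41.3 ± 10.2 CPM for HFD and 170.2 ± 65.0 CPM for HFD+Mino (SD, n = 3). Atp6v0d1 had 326 ± 32.1, 163 ± 7.84 and 377 ± 88.7 CPM in the same order, with a log2 fold change of 1.21 for HFD+Mino against HFD (SE 0.22, FDR 0.00763, edgeR). Mtor, the kinase that holds autophagy back, had mean levels of 37.8 ± 13.1 CPM (SD, n = 3 here and in the next values) for Control, 90.3 ± 10.9 CPM for HFD and 34.5 ± 5.13 CPM for HFD+Mino. For Prkaa1, a catalytic subunit of AMPK, the kinase that promotes autophagy, the means were 43.3 ± 1.86, 71.6 ± 12.4 and 24.3 ± 8.17 CPM in the same order. Their log2 fold changes for HFD+Mino against HFD were -1.39 (SE 0.26, FDR 0.00856) and -1.56 (SE 0.27, FDR 0.00645), so genes for an inhibitor and an activator were lower together. The median log2 fold change for HFD+Mino against HFD was -0.54 over 34 regulators, -0.13 over 26 genes of selective autophagy, -0.02 over 21 fusion partners and 0.32 over 30 lysosomal genes, against 0.01 over all genes. For HFD against Control the medians were 0.34, 0.00, -0.20 and -0.29. In the looser reading 9 lysosomal genes were higher and 4 lower in HFD+Mino than in HFD, against 4 and 8 of the regulators, while 14.6% of all genes were higher and 12.9% lower.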

How the data were processed

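The data were bulk RNA-seq of PVN punches from 9 mice, 3 per group. Per the labels and the study's methods, the authors made cDNA libraries with the SMARTer Ultra Low Input v4 and Nextera XT kits, aligned paired 50-base reads to mm10/GRCm38 with HISAT2 and counted them per gene with featureCounts (versions not given in the sources used here). The deposited values are raw counts per Entrez gene, with no normalization. Rows with no gene symbol, 958 of 27179, held between 0.0785% and 0.0932% of each library. Total counts per library set the precision of low genes (the lowest member value was 4.35 CPM, Zfyve1).

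Groups came from the sample titles. Genes were filtered with filterByExpr, scaled by TMM and fitted in edgeR 4.0.16 (R 4.3.3; limma 3.58.1) with the quasi-likelihood test over all 9 libraries, with Benjamini-Hochberg adjustment over 17344 genes. A 3-way test (HFD highest or lowest, and 1.5-fold or more away from the average log2 value over the groups) and 3 pairwise contrasts used an FDR under 0.01. The read-out at an FDR under 0.05 was added. On simulated counts for 17062 genes with 200 changed, 71 genes were called for HFD against Control, of which 71 were changed, including 62.2% of those changed 4-fold and 10.2% of those changed 2-fold. For HFD+Mino against HFD 71 were called, with 68.4% and 4.08%. The simulation changed HFD alone, so it holds no changed gene for HFD+Mino against Control, where 0 were called. It gave all groups the same spread and held no trend on length. In the data the median SD of log2 CPM over the 46 genes was 0.125 in HFD, 0.33 in Control and 0.352 in HFD+Mino. The simulated shares need therefore not hold for the data. CPM values use TMM-scaled library sizes, exon lengths are of GENCODE M21, and positions and promoters are RefSeq, GRCm38.p6. Tables and figures were made with Python 3.11.15, pandas 2.3.3 and matplotlib 3.10.9.

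The 46 members, the 4 pathway lists (regulators, selective autophagy, fusion partners, lysosome) and the marker lists (neurons, PVN neurons, neighbouring regions, astrocytes, microglia, oligodendrocytes and their precursors, vessels, ependyma, ribosomal precursor) were chosen with earlier results of these data known. Of 117 pathway names 5 were not found in the table under the names used, and 1 more did not pass the filter. Full statistics were planned for members called in any test, the 2 per step with the largest difference between HFD and Control, and Ulk1, Becn1, Atg9a, Atg5, Map1lc3a, Map1lc3b, Gabarap, Gabarapl1, Gabarapl2 and Sqstm1. Other members are given in full because they passed an FDR of 0.05 or separated by library, a choice made after their values were seen.

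Pairing was checked by correlating libraries' deviations from their group means. Between Control and HFD+Mino, same-numbered libraries correlated at 0.135, 0.163 and 0.292, and differently numbered ones at between -0.162 and 0.0255. These groups were treated as paired from the counts alone, since no source says what the number marks. Deviations from a group mean cancel out within the group, so these correlations are not independent of each other. Control 2 and HFD 1, with different numbers, reached 0.167, so the pairing is not established. Against HFD the same-number values were between -0.152 and -0.00624. Alternatives were DESeq2 1.42.0, RLE size factors, a likelihood ratio test, other filters and thresholds, smooth trends on length or GC content removed, the replicate block, and fewer libraries.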

Additional observations from a re-analysis of the deposited data

How the results depend on the processing

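The number of autophagy genes called depended on the processing, the share of all genes called (in brackets) moved with it, and the causes were not tested. In the 3-way test, where 1 gene was called (2.13%), DESeq2 called 8 (13.4%), the likelihood ratio test 7 (12.9%), no filter on low counts 5 (5.19%) and an FDR under 0.05 gave 7 (13%). Removing the trend on exon length gave 0 (1.42%), on the GC-richest stretch 0 (1.89%), and leaving out 1 library between 0 and 13. For HFD against Control, where 0 were called (1.74%), DESeq2 called 2 (6.76%), the likelihood ratio test 2 (5.57%), an FDR under 0.05 gave 2 (5.77%) and leaving out 1 library between 0 and 2. For HFD+Mino against HFD, where 2 were called (4.15%), DESeq2 called 17 (22.2%), the likelihood ratio test 16 (19.1%), no filter 8 (7.61%) and an FDR under 0.05 gave 18 (27.4%). Removing the trend on GC content gave 5 (8.14%), on the GC-richest stretch 1 (4.16%) and on length 0 (1.68%), and leaving out 1 library between 0 and 17. For HFD+Mino against Control, leaving out 1 library gave between 0 and 2 against 0.

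With the replicate number as a block, the 3-way test called 3 (block in all groups, 2.81%) and 10 (block for Control and HFD+Mino only, 13.2%). HFD against Control gave 0 (1.64%) and 3 (6.22%), HFD+Mino against HFD 8 (7.89%) and 20 (25.6%), and HFD+Mino against Control 0 (0%) and 2 (3.18%). At an FDR under 0.05, HFD against Control gave 4 (6.38%) and 12 (15.3%), and HFD+Mino against Control 12 (15.5%) with the narrower block. The descriptions number the HFD libraries from 3 to 5, unlike the titles, so the pairing of HFD rests on the titles alone.

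Counts at an FDR under 0.05 under other settings, and the fits with the GC-richest stretch or with a single HFD+Mino library, were chosen after seeing the data. The 3-way count of 7 became 2 (6.65%) with the length trend removed, and between 0 (without HFD 1 or HFD 3) and 13 (without HFD+Mino 3) when 1 library was left out. For HFD against Control, the count of 2 became 6 in DESeq2 (11.3%) and in the likelihood ratio test (9.62%), and between 0 and 4 when 1 library was left out. For HFD+Mino against HFD, the count of 18 became 11 (15.8%) with the length trend removed, and between 2 and 24 when 1 library was left out. For HFD+Mino against Control, the count of 0 became 3 in DESeq2 (7.63%), 2 in the likelihood ratio test (5.77%), and between 0 and 11 when 1 library was left out. The 15 genes with HFD beyond all other libraries (32.6%, against 23% of all genes) became between 15 and 28, the highest without Control 3. Leaving out a library leaves fewer values to separate, so this count tends to rise by construction. The shares of all genes in those fits are not given here.

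With HFD+Mino 3 as the only library of its group, its spread was assumed to be that of the other groups, so a lost call there says little. The 3-way test then called 0 (1.97%), and HFD+Mino against HFD 0 with Control 1 (1.05%) and 0 without it (2.52%), while the log2 fold change of Atg2b was -1.58 and -1.63 and that of Rb1cc1 -1.23 and -1.28. At an FDR under 0.05, with and without Control 1, the 3-way test gave 2 (6.17%) and 3 (8.75%), HFD against Control 5 (9.08%) and 5 (9.79%), and HFD+Mino against HFD 1 (3.01%) and 3 (9.34%).

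For 22 genes and both comparisons with HFD, 991 of 1012 log2 fold changes under the alternatives kept their direction. With the length trend removed, HFD against Control became 0.16 for Atg5, 0.23 for Gabarap, 0.088 for Gabarapl1, 0.015 for Gabarapl2 and 0.046 for Sqstm1, and HFD+Mino against HFD became -0.24 for Atg5, -0.57 for Gabarapl1, -0.014 for Map1lc3a and -0.14 for Sqstm1. With the GC-richest trend removed Ulk1 became 0.038 for HFD against Control and Calcoco1 -0.095 for HFD+Mino against HFD. Under the block, Calcoco1 became -0.11 in all groups and -0.12 with the narrower block for HFD+Mino against HFD, and Gabarap 0.0025 for HFD against Control. With HFD+Mino 3 alone Gabarapl1 became -0.010 for HFD+Mino against HFD, and without Control 1 as well -0.058, with Gabarap at 0.12 for HFD against Control. Leaving out 1 library, Gabarap lay between -0.21 and 0.11 for HFD against Control and Calcoco1 between -0.57 and 0.32 for HFD+Mino against HFD.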
